A study of Drosophila melanogaster with 12 samples.

Results

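The nuclear tRNA genes of Drosophila melanogaster were examined for peaks of the insulator protein CP190 and of the zinc-finger protein CLAMP. All genes of biotype tRNA on arms X, 2L, 2R, 3L, 3R and 4 were taken from the RefSeq annotation of dm6, which gave 290 of the 17673 annotated genes on these arms. Arm 2R held 98 of them, 3R 79, 3L 48, 2L 41 and X 24, and arm 4 held 0. A gene was called in a library where the summit of a deposited peak lay within 500 bp of the gene. A tRNA gene was termed clustered where another tRNA gene lay within 5 kb, which held for 214 genes, and single otherwise, which held for 76. The whole gene lay within the span of a protein-coding gene for 134 tRNA genes (inside) and not for 156 (outside).

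Transcription factors recruit RNA polymerase III to tRNA genes through promoter elements that lie within the transcribed sequence. TFIIIC binds these internal boxes and positions TFIIIB, which in turn brings in the polymerase. In yeast, tRNA genes and bound TFIIIC can act as barriers between chromatin domains. CP190 is a BTB and zinc-finger protein of several fly insulator complexes, and it is brought to DNA largely by other DNA-binding proteins. CLAMP binds GA-rich repeats and is known for its role in dosage compensation of the X chromosome.

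Chromatin immunoprecipitation and sequencing (ChIP-seq) was done in Kc167 cells, an embryonic line labelled as female. Cells nucleofected with 12 µg of dsRNA that targets CP190, here dsCP190 cells, were compared, after 6 days, with mock cells that received no RNA. Each treatment had 2 replicates with 5 µg of an antibody against CP190 and 2 with one against CLAMP, and 4 further samples were inputs, which were not analysed here. The sample labels and the series title name a CP190 knockdown, the design text a CLAMP knockdown, and the sample labels were followed.

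No label states that replicates are separate cultures, so the p-values speak to the spread among these samples alone, which may be technical. With 2 libraries against 2, the smallest two-sided exact permutation p is 0.333, and no comparison could pass 0.05. No file used here measures CP190 RNA or protein, so the knockdown itself could be read only from the peak lists. The CP190 lists held 2047 and 3138 peaks in dsCP190 cells, against 7669 and 7964 peaks in mock cells. The CLAMP lists held 2468 and 901 peaks in dsCP190 cells, against 4471 and 4514 in mock cells. Total read depth is not given in the sources used here. The recovered background at shared summits was taken in its place. In dsCP190 libraries it was 0.530 to 0.924 times that of mock libraries with the CP190 antibody. With the CLAMP antibody it was 0.360 to 0.449 times. Since the control and the peak calling are not known, these ratios may differ from those of read depth. List length and background thus moved with the treatment in both antibodies. Their part in the results below was not tested except where a value is given.

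CP190 peaks lay at fewer tRNA genes after the knockdown. With the CP190 antibody 24 and 38 tRNA genes were called in dsCP190 cells, against 72 and 68 in mock cells. The means were 31.0 ± 9.90 genes in dsCP190 cells and 70.0 ± 2.83 genes in mock cells (SD, n = 2 each), a ratio of 0.443, and the groups did not overlap (two-sided exact permutation p = 0.333). Several genes often shared a peak. The distinct peaks at tRNA genes numbered 19 and 30 in dsCP190 cells, against 49 and 50 in mock cells. The whole lists shrank further, to a ratio of 0.332, so the share of CP190 peaks that lay at tRNA genes was 0.928% and 0.956% in dsCP190 cells, against 0.639% and 0.628% in mock cells (exact permutation p = 0.333). The difference of the means, 0.309 percentage points, was 0.147 with lists of equal length, 0.126 with peaks that overlap the gene and 0.576 at a −log10 q of at least 10. Of all positions on the arms, 1.64% and 2.51% lay as near to a CP190 summit in dsCP190 cells, against 6.15% and 6.39% in mock cells. The tRNA genes were called at 8.28% and 13.1% in dsCP190 cells, against 24.8% and 23.4% in mock cells. When each CP190 list was reduced to its 2047 strongest peaks, the mean was 2.5 genes higher in dsCP190 cells than in mock cells, where the difference had been −39 genes with the deposited lists.

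**Figure D1:**
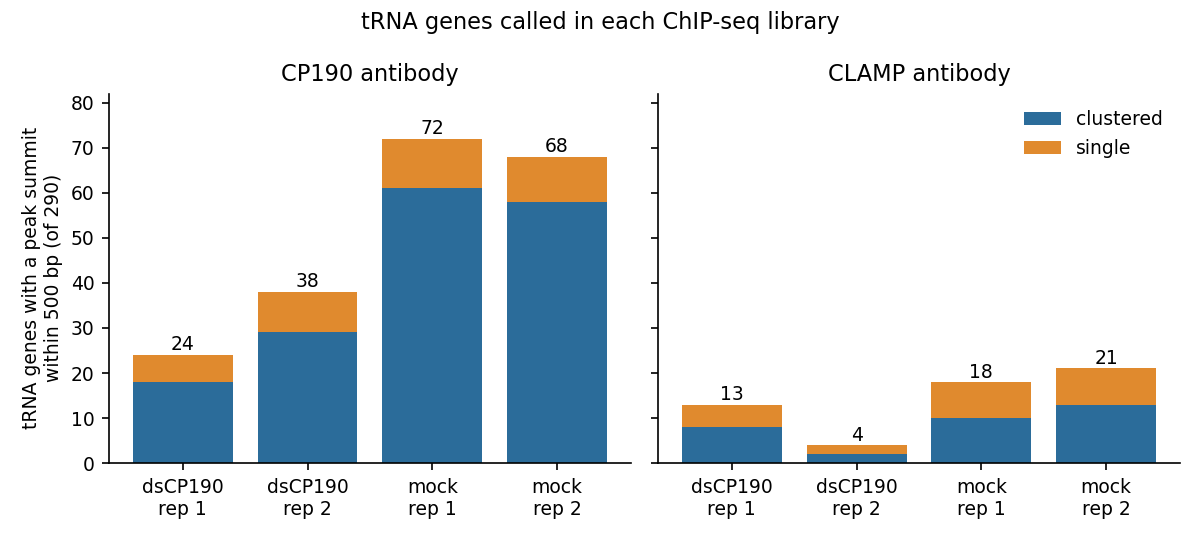
Number of the 290 tRNA genes with a peak summit within 500 bp in each ChIP-seq library, by antibody, split into clustered and single genes. With the CP190 antibody the dsCP190 libraries stand at 24 and 38 genes and the mock libraries at 72 and 68, and with the CLAMP antibody the dsCP190 libraries stand at 13 and 4 and the mock libraries at 18 and 21.

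A tRNA gene with a call in each of the mock libraries counts as reproducible. CP190 was reproducible at 59 of 290 tRNA genes (20.3%), which lay in 41 loci. By the same window it was reproducible at 9.91% of 565 other short non-coding genes (snoRNA, miRNA, snRNA and the RNAs of the signal recognition particle and of RNases P and MRP) and, at either annotated end, at 47.4% of 13911 protein-coding genes. After dsCP190, 26 of the 59 genes were called in neither library (lost, 44.1%), 24 in both (kept, 40.7%) and 9 in 1 (15.3%). The other short non-coding genes were close to this, with 41.1% lost and 35.7% kept, and protein-coding genes had 51.2% lost and 25.8% kept. With lists of equal length 1 tRNA gene counted as lost and 21 as kept. At a −log10 q of at least 10, 16 tRNA genes were lost, 14 kept and 13 called in 1 dsCP190 library. With a window of 1000 bp, 42 were lost, 39 kept and 14 called in 1. No tRNA gene was gained, that is, called in both libraries of dsCP190 cells and in 0 of mock cells, against 0.354% of the other short non-coding genes and 0.187% of protein-coding genes. Another 13 tRNA genes were called in mock replicate 1 and not in mock replicate 2, and 9 in mock replicate 2 and not in mock replicate 1. At least 1 of the 4 CP190 libraries called 83 tRNA genes.

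Genes kept after dsCP190 had stronger mock peaks than genes lost. Peaks were ranked by the authors' fold enrichment within each list, as a percentile from weakest to strongest, and the 2 mock percentiles were averaged. Kept genes had a median percentile of 91.5 (33.4 to 99.0), genes called in 1 dsCP190 library 48.8 (4.22 to 75.7) and lost genes 11.6 (3.90 to 83.2). Of the 17 genes whose peaks ranked below the 25th percentile, 15 were lost and 0 kept, whereas 21 of the 24 genes above the 75th percentile were kept and 2 were lost. Over all CP190 peaks found in both mock libraries, 95.6% were lost below the 25th percentile, 87.4% up to the 50th, 46.7% up to the 75th and 12.4% above it. The tRNA genes between the 25th and 50th percentiles had 4 lost and 1 kept of 8, and those between the 50th and 75th had 5 lost and 2 kept of 10. At their mock fold and the lower background of the dsCP190 libraries, all 26 lost genes would have had a −log10 p above the lowest one of both dsCP190 lists. So would all 35 reproducible genes not called in dsCP190 replicate 1 and all 26 not called in replicate 2. This reckoning takes the fold as unchanged and separated none of these genes. Why a gene was not called was not tested.

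**Figure D2:**
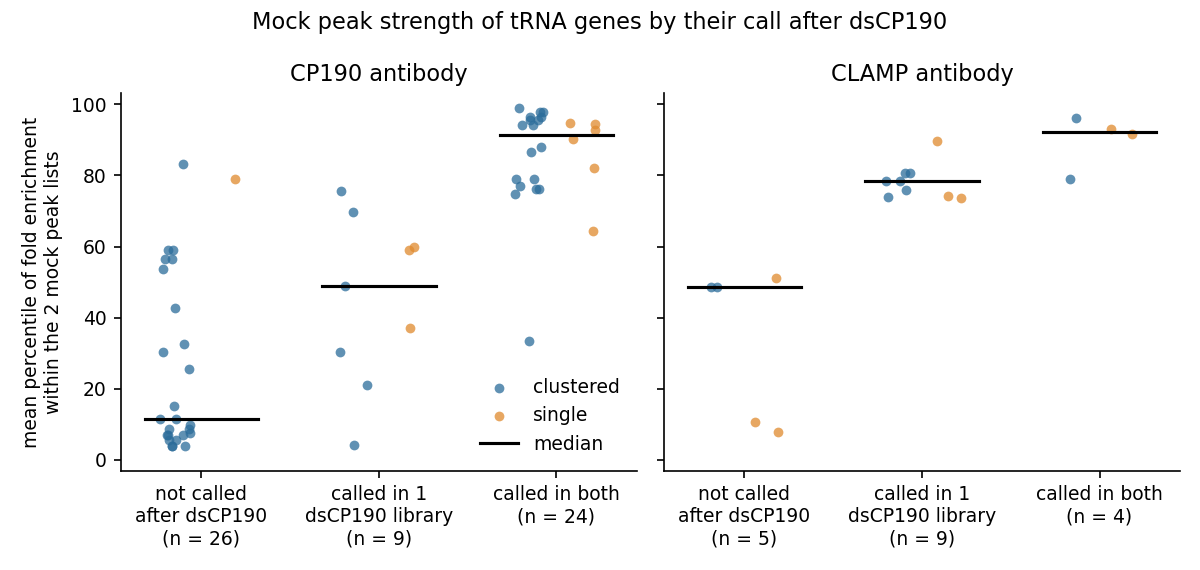
Mean percentile of fold enrichment within the 2 mock lists for each reproducible tRNA gene, by its call after dsCP190, for each antibody; points are genes, colours mark clustered and single genes, and lines are medians. For CP190 the medians are 11.6 for 26 lost genes, 48.8 for 9 genes called in 1 dsCP190 library and 91.5 for 24 kept genes.

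Fold enrichments below are the authors' values for single peaks, set side by side and not tested between libraries. The fragment numbers beside them were recovered from the deposited fold and −log10 p. Names give the amino acid and the anticodon, and iMet is the initiator methionine tRNA. The strongest kept gene was tRNA:Arg-TCG-2-4 (chr3R:8862933-8863005), inside pyd, the fly homologue of the junction protein ZO-1. Its CP190 peak had a fold of 2.30 and 8.78 in dsCP190 cells, against 42.0 and 35.0 in mock cells, with 43 and 81 fragments against 332 and 413. Both dsCP190 values lay below both mock values, as at 22 of the 24 kept genes. Kept means only that a peak was still listed.

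At tRNA:Gln-CTG-2-3 (chr2L:2009538-2009609), 250 bp from an end of CG4238, the CP190 fold was 4.24 and 12.5 in dsCP190 cells, against 35.2 and 32.5 in mock cells. At tRNA:Val-CAC-1-1 (chr3R:17617761-17617833) it was 4.66 and 12.5 in dsCP190 cells, against 40.9 and 28.1 in mock cells. tRNA:Ala-CGC-1-2 and tRNA:Ala-CGC-1-3, which share a peak inside gol on arm 2R, had 10.1 and 12.1 in dsCP190 cells, against 42.9 and 24.2 in mock cells. In all 3 peaks both dsCP190 values were below both mock values, and dsCP190 replicate 1 was the lower of the pair.

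The initiator genes tRNA:iMet-CAT-1-4 (chr3L:14673942-14674013) and tRNA:iMet-CAT-1-5 (chr3L:14674344-14674415) share a peak inside ome. It had a fold of 5.79 and 19.5 in dsCP190 cells, against 28.8 and 28.7 in mock cells. The groups overlapped at the remaining 2 kept genes. At tRNA:Thr-AGT-1-4 (chr3R:16431940-16432013), a single gene inside CG31279, the fold was 11.7 and 27.0 in dsCP190 cells, against 30.8 and 24.3 in mock cells. At tRNA:Phe-GAA-1-2 (chrX:6744471-6744543), a single gene 233 bp from an end of the ribosomal protein gene RpL17, it was 15.4 and 29.3 in dsCP190 cells, against 28.6 and 25.3 in mock cells. In both, dsCP190 replicate 2 lay within or above the mock range and dsCP190 replicate 1 below it. The weakest kept gene, tRNA:Ala-TGC-2-1 on arm 2R, had 3.45 and 3.58 in dsCP190 cells, against 5.99 and 5.07 in mock cells.

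The lost genes with the strongest mock peaks lay near protein-coding gene ends. The CP190 fold at tRNA:Thr-AGT-1-2, inside CG12831 on arm 2R, was 18.2 and 17.7 in mock cells with 196 and 236 fragments. In dsCP190 cells no peak was listed there, and the nearest summits lay 58523 and 7656 bp away. The single gene tRNA:Pro-TGG-1-5 (chr3R:18628467-18628538), inside the piRNA pathway gene qin, had a mock fold of 17.2 and 14.6 and no summit nearer than 55308 bp in dsCP190 cells. It was the only single gene among the 26 lost.

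The pair tRNA:Phe-GAA-1-4 and tRNA:Phe-GAA-1-5, between the ubiquitin ligase gene Smurf and CG10936 on arm 2R, shared a peak with a mock fold of 8.71 and 10.5. The pair tRNA:Val-TAC-1-1 (chr3L:5356343-5356415) and tRNA:Val-TAC-1-2 (chr3L:5356662-5356734), between lama and the kinesin gene Klp64D, shared a peak with a mock fold of 9.13 and 8.93. tRNA:Gly-GCC-1-13 on arm 2R, 248 bp from an end of the GTP cyclohydrolase gene Pu, had 8.70 and 8.34. tRNA:Ser-AGA-2-4 (chr2L:3173003-3173084) had 5.65 and 7.97. None of these had a peak within 500 bp in either dsCP190 library. The other 18 lost genes had mock folds of 2.33 to 5.73.

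All 9 genes called in 1 dsCP190 library were called in replicate 2, whose list of 3138 peaks was the longer of the pair, and in 0 cases in replicate 1. The strongest of them, named after its values were seen, was tRNA:Lys-TTT-2-1 (chr3R:6819894-6819966), with a fold of 5.46 in dsCP190 replicate 2 and no peak in replicate 1, against 13.9 and 15.1 in mock cells. The weakest, tRNA:Val-AAC-2-1 inside the adducin gene hts on arm 2R, had 2.43 in dsCP190 replicate 2, against 2.23 and 2.89 in mock cells. At this gene the dsCP190 value lay between the mock values.

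The 290 genes formed 68 clusters and 76 single genes. Clusters had a median of 2 genes and up to 11. A reproducible CP190 gene was present in 31 clusters, and in 6 of these every gene was reproducible. In 13 clusters at least 1 gene was kept, and in another 13 every reproducible gene was lost.

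One of the largest clusters holds 11 genes for arginine, asparagine, isoleucine and lysine tRNAs on arm 2R, 8 of them inside EcR, the ecdysone receptor gene. CP190 was reproducible at 6 of these genes, of which 5 were lost and 1 was kept. The kept gene, tRNA:Arg-ACG-1-3, lies outside EcR, 520 bp from an end of it. Its fold was 2.77 and 8.67 in dsCP190 cells, against 13.8 and 14.3 in mock cells. The lost genes rested on weak peaks. At tRNA:Asn-GTT-1-5, tRNA:Asn-GTT-1-6 and tRNA:Lys-CTT-1-2 the mock peaks had a fold of 2.33 and 2.81 with 26 and 41 fragments. Their summits differed between the mock replicates, at chr2R:6162399 in replicate 1 and chr2R:6162683 in replicate 2. The peak at tRNA:Lys-CTT-1-5 and tRNA:Arg-ACG-1-4 had 3.32 and 3.36 with 38 and 52. The mean mock percentiles of these groups of genes were 3.90 and 11.6.

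The other cluster of 11 genes (chr3R:17617761-17631750) holds alanine, proline, threonine and valine tRNA genes, 2 of them inside CG43175. Only tRNA:Val-CAC-1-1 at its edge was reproducible, and its summits lay 399 to 432 bp from the gene, on the side away from the cluster. A peak over tRNA:Ala-AGC-2-2, tRNA:Pro-TGG-1-2 and tRNA:Ala-AGC-2-3 was in mock replicate 1 only, with a fold of 2.77. The other 7 genes had no call in any CP190 library.

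**Figure D3:**
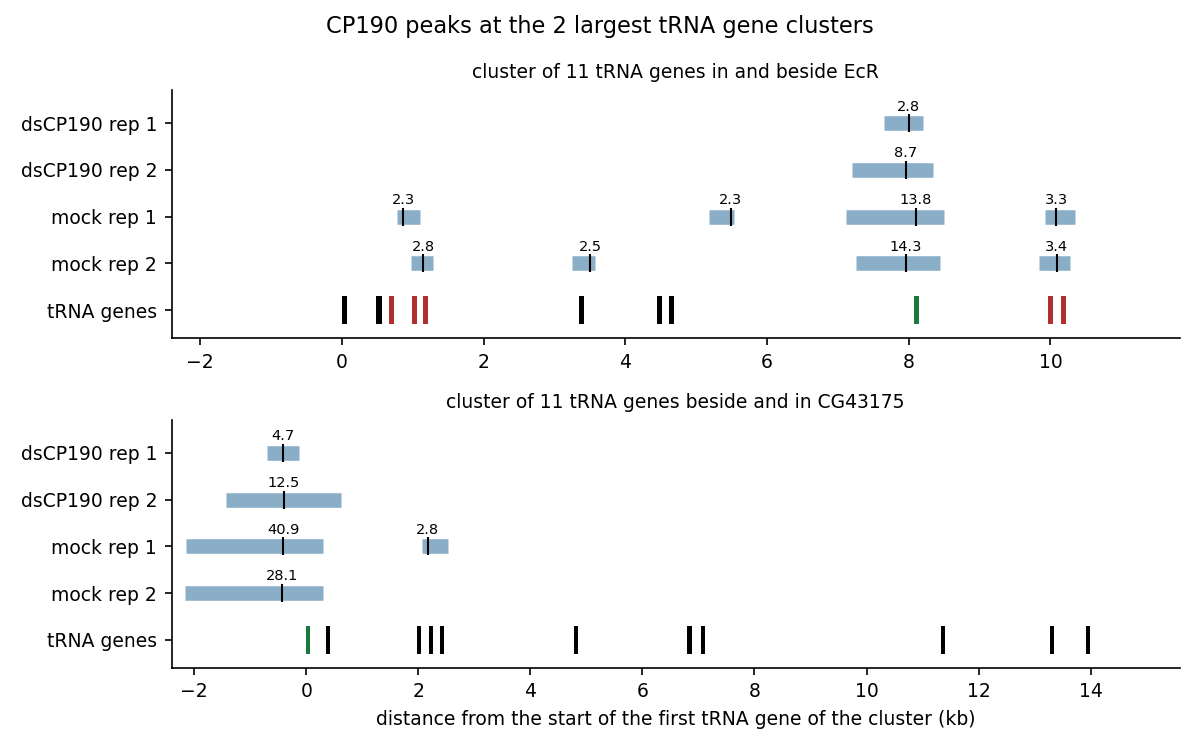
CP190 peaks in each library at the clusters of 11 tRNA genes, against the distance in kb from the first gene; bars are peak intervals, ticks are summits and numbers are the authors' fold enrichments, with kept genes green, lost genes red and other genes black. A peak is present in all 4 libraries over the kept gene beside EcR (fold 2.77 and 8.67 in dsCP190 cells, 13.8 and 14.3 in mock cells) and beside the first gene of the lower cluster (4.66 and 12.5 in dsCP190 cells, 40.9 and 28.1 in mock cells), and the remaining peaks are in mock libraries only.

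Of 3 clusters with 7 genes, the one inside the flippase gene ATP8A on arm 2R holds isoleucine and leucine tRNA genes. CP190 was reproducible there at tRNA:Ile-AAT-1-6 and tRNA:Ile-AAT-1-7, which shared a peak with a mock fold of 2.95 and 2.71 and were both lost. In the cluster of glutamate and initiator tRNA genes on arm 2R, CP190 was reproducible at tRNA:Glu-TTC-1-5, which was kept with a fold of 3.46 and 8.89 in dsCP190 cells, against 20.1 and 21.8 in mock cells. That gene lies 12592 bp from the nearest protein-coding gene end. In the third (chrX:14014814-14017284), which the rule for naming added as a tie, no gene was reproducible.

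Clustered genes were called for CP190 more often than single genes in mock cells, and by little in dsCP190 cells. The share called was 8.41% and 13.6% of clustered genes against 7.89% and 11.8% of single genes in the dsCP190 libraries. In the mock libraries it was 28.5% and 27.1% of clustered genes against 14.5% and 13.2% of single genes. The difference was thus 0.516 and 1.71 percentage points in dsCP190 cells and 14.0 and 13.9 in mock cells, without overlap (exact permutation p = 0.333). Of 49 reproducible clustered genes, 25 were lost, 18 kept and 6 called in 1 dsCP190 library. Of 10 reproducible single genes, 1 was lost, 6 were kept and 3 were called in 1. All 17 reproducible genes below the 25th percentile were clustered, and they lay in 9 loci. With a −log10 q of at least 10 in every list the mock difference was 3.43 percentage points. With lists of equal length the difference was 0.326 percentage points in dsCP190 cells and 1.83 in mock cells. Because neighbours share peaks, genes are not independent, and no test was made over them. In mock replicate 1, 39 of the 72 called genes shared a peak with another tRNA gene, up to 4 per peak.

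Over clustered and single genes together, genes inside protein-coding genes were called less often for CP190 than genes outside in every library. The difference of the shares, inside minus outside, was −2.90 and −6.32 percentage points in dsCP190 cells and −3.15 and −11.7 in mock cells. Among single genes the shares lay the other way in every library, but on few genes. The share called was 9.52% and 11.9% inside against 5.88% and 11.8% outside in dsCP190 cells. In mock cells it was 16.7% and 14.3% inside against 11.8% in both libraries outside. These were 4 and 5 of 42 genes inside against 2 and 4 of 34 outside in dsCP190 cells. In mock cells they were 7 and 6 inside against 4 in both libraries outside. In dsCP190 replicate 2 the shares were nearly equal. The reproducible genes were 21 of 134 inside, with 9 lost and 9 kept, and 38 of 156 outside, with 17 lost and 15 kept. The distance to a protein-coding gene end moved with this difference. Within 1000 bp of such an end, 35 of 104 tRNA genes were reproducible (33.7%), and beyond it 24 of 186 (12.9%). Among genes beyond 1000 bp, the mean mock share was 0.162 percentage points higher inside than outside.

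In steps of distance, CP190 was reproducible at 16 of 44 tRNA genes up to 250 bp from an end, at 9 of 26 from 251 to 500 bp, and at 10 of 34 from 501 to 1000 bp. Farther away it was reproducible at 7 of 34 genes from 1001 to 2000 bp, at 9 of 53 from 2001 to 5000 bp and at 8 of 99 beyond. The other short non-coding genes had similar shares near an end and lower shares from 501 to 5000 bp. They were reproducible at 29.6% up to 250 bp, at 29.6% from 251 to 500 bp, at 3.70% from 501 to 1000 bp, at 3.08% from 1001 to 2000 bp, at 4.72% from 2001 to 5000 bp and at 6.25% beyond. The tRNA genes stood at 36.4%, 34.6%, 29.4%, 20.6%, 17.0% and 8.08% in the same steps. Whether tRNA genes differ from the others was not tested, since genes of a cluster are not independent.

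**Figure D4:**
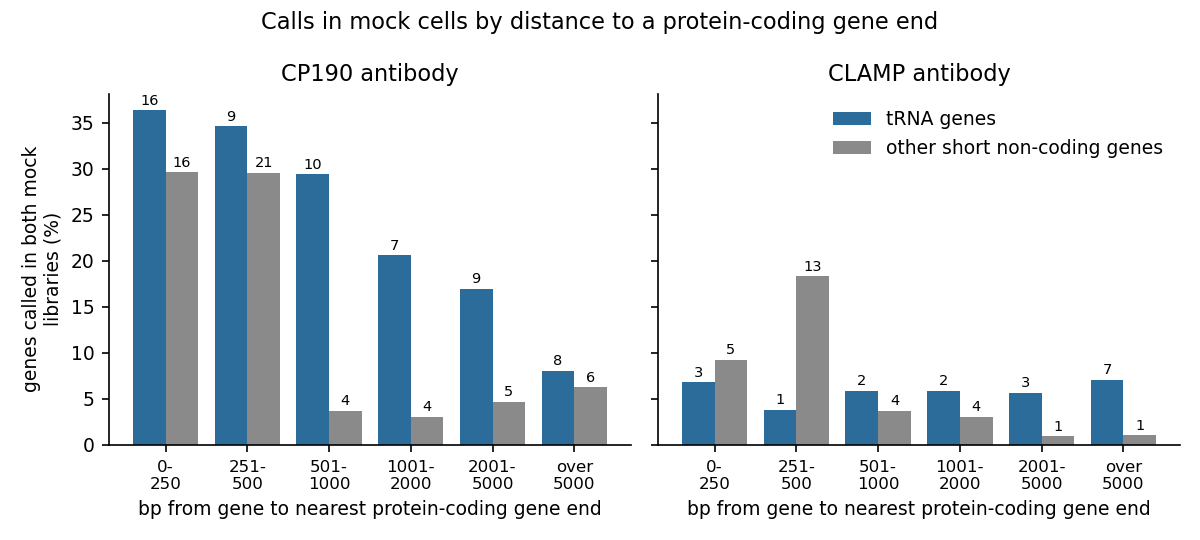
Percent of genes called in both mock libraries against the distance in bp to the nearest protein-coding gene end, for 290 tRNA genes and 565 other short non-coding genes and for each antibody; numbers over the bars are genes called. For CP190 the tRNA genes stand at 29.4% and the other genes at 3.70% from 501 to 1000 bp, and at 8.08% and 6.25% beyond 5000 bp.

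The 24 reproducible genes beyond 1000 bp from a protein-coding gene end had a median mock percentile of 31.5, against 59.9 for the 35 genes nearer to one. Those beyond it included tRNA:Arg-TCG-2-4, at 35654 bp, tRNA:Asp-GTC-1-6 (chr2L:8620028-8620099), inside the semaphorin gene Sema1a and 51942 bp from an end, and tRNA:Pro-CGG-2-1 (chrX:18565764-18565835), a single gene inside the LIM-only gene Bx. tRNA:Pro-CGG-2-1 was named after its values were seen. Its CP190 fold was 13.0 and 21.8 in dsCP190 cells, against 25.4 and 24.7 in mock cells.

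Most counted CP190 summits lay beside the tRNA gene, as does most of the span that the 500 bp window admits. The window thus largely sets this, and no preference for a place beside the gene was tested. For the reproducible genes the median distance from summit to gene was 148.5 bp, 19 of 59 lay within 100 bp, and 0 had the summit inside the gene in both mock libraries. The median was 102 bp for lost genes and 210.5 bp for kept genes, and the median peak width was 519 bp for lost genes and 1122.5 bp for kept genes. Of the 35 reproducible genes within 1000 bp of a protein-coding gene end, 23 had the summit of mock replicate 1 nearer to the tRNA gene than to any such end. For genes farther away the window fixes this. For the 35 nearer genes it favours the tRNA gene, since summits were counted only within 500 bp of it. Of these 35, 10 lay 501 to 1000 bp from an end. The count thus does not show to which feature a peak belongs. At the limit of 500 bp, the farthest summit counted in mock replicate 1 was 498 bp from tRNA:Leu-CAA-1-1 and the nearest left out was 507 bp from tRNA:Asp-GTC-1-4. For the limit of 5 kb, tRNA:Thr-TGT-2-2 counted as clustered at 4858 bp from its neighbour and tRNA:Ile-AAT-1-8 as single at 5072 bp.

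CLAMP peaks lay at few tRNA genes, and at fewer after the knockdown of CP190. With the CLAMP antibody 13 and 4 tRNA genes were called in dsCP190 cells, against 18 and 21 in mock cells. The means were 8.50 ± 6.36 genes in dsCP190 cells and 19.5 ± 2.12 in mock cells (SD, n = 2 each), a ratio of 0.436 (exact permutation p = 0.333). With lists of equal length the difference, −11 genes with the deposited lists, was −1 gene. The groups did not overlap, but the dsCP190 libraries differed from each other by 9 genes. The distinct peaks were 11 and 4 in dsCP190 cells, against 15 and 17 in mock cells. All CLAMP peaks fell to a ratio of 0.375, and the share of CLAMP peaks at tRNA genes was 0.446% and 0.444% in dsCP190 cells, against 0.335% and 0.377% in mock cells. With a window of 250 or 1000 bp, with peaks that overlap the gene, or with lists of equal length, that share was lower in dsCP190 cells. Of all arm positions, 1.95% and 0.714% lay as near to a CLAMP summit in dsCP190 cells, against 3.53% and 3.57% in mock cells.

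CLAMP was called at fewer tRNA genes than CP190 in both treatments. The means were 8.50 genes for CLAMP and 31.0 for CP190 in dsCP190 cells, and 19.5 for CLAMP and 70.0 for CP190 in mock cells (exact permutation p = 0.333 for each, 2 libraries against 2). The difference in dsCP190 cells, −22.5 genes, was −6 genes when genes within 1000 bp of a protein-coding gene end were left out, and the groups then overlapped (exact permutation p = 0.667). The difference in mock cells, −50.5 genes, was −20 without genes near such an end. It was −18 genes with lists cut to 901 CLAMP peaks and 2047 CP190 peaks, which made lengths equal within each antibody only. List length was not matched between the antibodies. The mock lists held 4471 and 4514 CLAMP peaks and 7669 and 7964 CP190 peaks.

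CLAMP was reproducible at 18 of 290 tRNA genes (6.21%), in 15 loci, against 4.96% of other short non-coding genes and 11.6% of protein-coding genes. After dsCP190, 5 of the 18 were lost, 4 kept and 9 called in 1 library. The background had 42.9% lost and 17.9% kept among the other short non-coding genes, and 43.8% lost and 17.2% kept among protein-coding genes. No tRNA gene was gained, against 0% of other short non-coding genes and 0.0647% of protein-coding genes. All 9 genes called in 1 dsCP190 library were called in replicate 1, whose list held 2468 peaks, and not in replicate 2, whose list held 901. Without dsCP190 replicate 1, 14 of the 18 genes counted as lost and 4 as kept, and without dsCP190 replicate 2, 5 as lost and 13 as kept. Without mock replicate 1, 8 genes counted as lost. CLAMP was reproducible at 10 clustered genes and at 8 single genes, and the difference of the shares called, clustered minus single, was −2.84 and −1.70 percentage points in dsCP190 cells and −5.85 and −4.45 in mock cells. Over loci in place of genes the mean difference had the other sign, with 1.28 percentage points in dsCP190 cells and 1.24 in mock cells. A cluster counted as called where any of its genes was called. Clusters thus offered more sequence for a call than single genes, and the shares over loci are not like for like.

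The 4 kept genes had strong mock peaks. At tRNA:Tyr-GTA-1-8 (chr3R:8669081-8669174), inside p and CG8036, the CLAMP fold was 13.3 and 6.32 in dsCP190 cells, against 14.2 and 19.0 in mock cells, with 122 and 60 fragments against 329 and 322. At tRNA:Pro-CGG-2-3 (chr3L:18618390-18618461), inside the deubiquitinase gene not, it was 12.7 and 4.54 in dsCP190 cells, against 13.4 and 14.3 in mock cells. At tRNA:Arg-TCG-2-2 (chrX:21232091-21232163), inside Mnr, it was 8.73 and 5.79 in dsCP190 cells, against 13.7 and 12.5 in mock cells. In these 3 genes both dsCP190 values were below both mock values, with replicate 2 the lower. At tRNA:Ala-TGC-2-1 the fold was 11.5 and 3.31 in dsCP190 cells, against 8.03 and 7.98 in mock cells, so the dsCP190 values lay on both sides of the mock values.

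The 5 lost genes had mock folds of 1.67 to 4.45. tRNA:Gln-TTG-2-1 (chrX:3427452-3427523), inside CG12535, had 3.34 and 4.45 in mock cells, with 51 and 61 fragments. The pair tRNA:Tyr-GTA-1-4 (chr3R:8642333-8642425) and tRNA:Tyr-GTA-1-5 (chr3R:8642701-8642793) shared a peak with 3.08 and 4.45. tRNA:Thr-AGT-1-4 had 2.20 and 2.27, and tRNA:Phe-GAA-1-2 had 1.67 and 2.44. No dsCP190 library listed a CLAMP peak at these genes. At the mock fold and the lower background, 3 of the 5 would have had a −log10 p above the lowest of both dsCP190 lists, and 2 would have had it in neither. As for CP190, the fold was taken as unchanged, and why a gene was not called was not tested.

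Both proteins were reproducible at 9 tRNA genes in mock cells, which is 50.0% of the 18 CLAMP genes and 15.3% of the 59 CP190 genes. Among other short non-coding genes the shared genes were 39.3% of the CLAMP genes and 19.6% of the CP190 genes. Of the 9 genes, 4 were clustered and 4 inside a protein-coding gene. The summits of the proteins lay a median of 50 bp apart, within 100 bp at 6 genes. In dsCP190 cells both proteins were called in both libraries at 2 genes, tRNA:Pro-CGG-2-3 and tRNA:Ala-TGC-2-1. Without CLAMP dsCP190 replicate 2 the number was 5.

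The strengths of the proteins at shared genes differed. tRNA:Pro-CGG-2-3 was strong in both, with a CP190 fold of 4.63 and 10.0 in dsCP190 cells, against 28.2 and 18.8 in mock cells. tRNA:Thr-AGT-1-4 and tRNA:Phe-GAA-1-2 were at mean mock percentiles 10.8 and 7.78 for CLAMP but 94.7 and 94.4 for CP190, and at both the CLAMP peak was lost and the CP190 peak kept. tRNA:Tyr-GTA-1-8 was the reverse, at percentile 96.0 for CLAMP and 30.4 for CP190, whose fold was 3.33 in dsCP190 replicate 2 with no peak in replicate 1, against 5.05 and 5.25 in mock cells. At tRNA:Leu-CAA-2-3 (chr3R:23601333-23601455) the CP190 peak was kept, with a fold of 4.62 and 9.10 in dsCP190 cells against 19.7 and 15.5 in mock cells. The CLAMP peak there had 3.71 in dsCP190 replicate 1 and was absent from replicate 2, against 6.71 and 6.61 in mock cells. At tRNA:Asp-GTC-1-6 CP190 had 3.71 and 3.77 in dsCP190 cells, against 10.3 and 11.4 in mock cells, and CLAMP had 5.19 in dsCP190 replicate 1 only, against 12.2 and 12.0 in mock cells.

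The 9 genes with reproducible CLAMP and without reproducible CP190 in mock cells lay a median of 7420 bp from a protein-coding gene end. The median was 550.5 bp for the 50 genes with reproducible CP190 and without reproducible CLAMP, and 884 bp for the 9 genes with both. A gene of these groups may still be called for the other protein in 1 mock library. In mock replicate 2, tRNA:Tyr-GTA-1-5 was called for CP190, and tRNA:Ser-TGA-1-1 and tRNA:Ser-TGA-2-1 were called for CLAMP. For CLAMP, the tRNA genes were reproducible at 5.77% within 1000 bp of an end and at 6.45% beyond it. The other short non-coding genes stood at 9.44% and 1.81%.

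**Figure D5:**
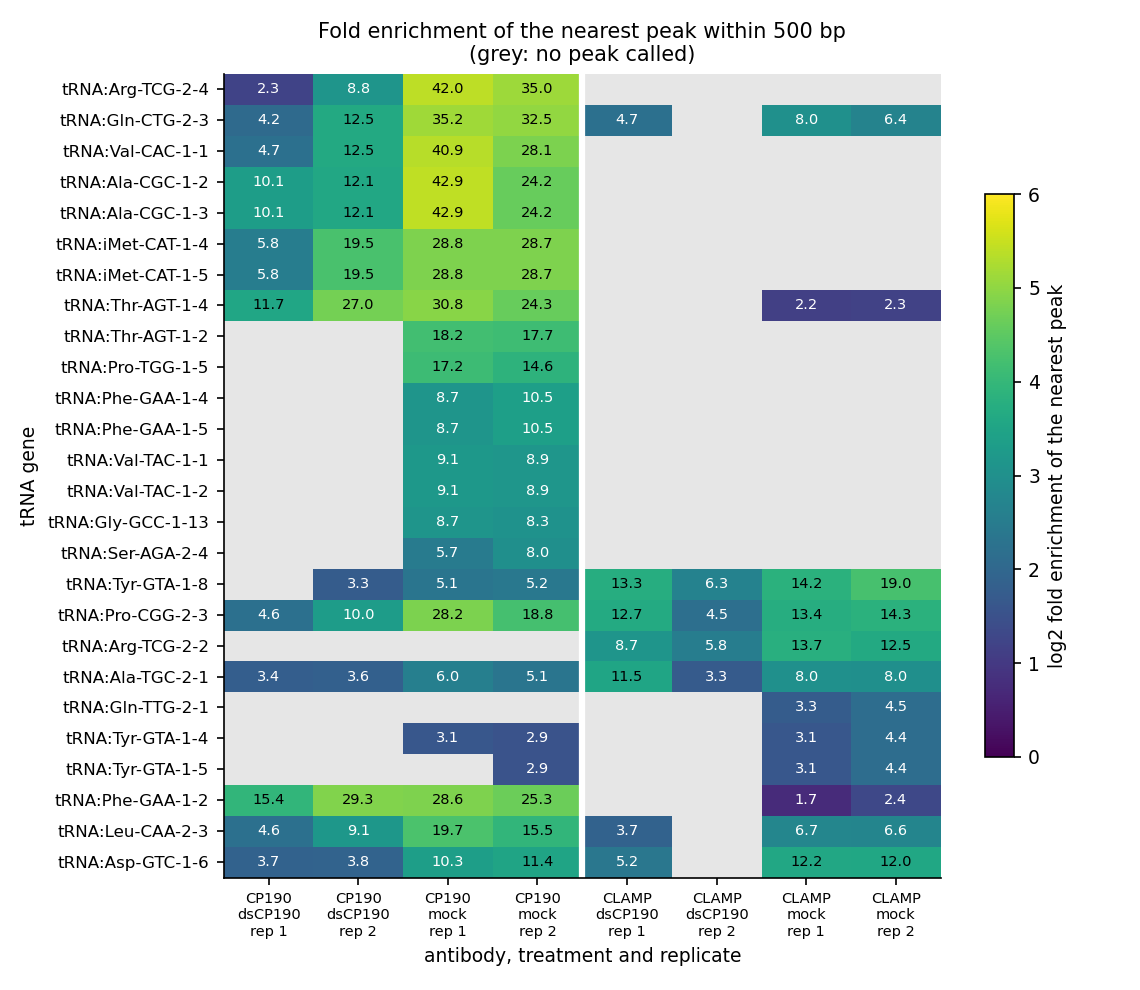
Authors' fold enrichment of the nearest peak within 500 bp of the named tRNA genes in each of the 8 libraries; colour is log2 fold, printed values are linear fold, and grey marks no listed peak. The first 8 genes were kept for CP190 (for example 2.30 and 8.78 in dsCP190 cells against 42.0 and 35.0 in mock cells at tRNA:Arg-TCG-2-4), and the next 8 are grey in both dsCP190 CP190 libraries.

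Of 22 tRNA identities by amino acid, with initiator methionine and selenocysteine apart, 19 had a reproducible CP190 gene and 10 a reproducible CLAMP gene. Over all tRNA genes the shares were 20.3% for CP190 and 6.21% for CLAMP. CP190 was reproducible at 7 of 22 leucine genes, 6 of 15 valine genes, 6 of 17 proline genes and 5 of 20 serine genes. CP190 was also reproducible at 3 of 8 phenylalanine genes and 2 of 6 initiator methionine genes. It was reproducible at 0 of 7 cysteine genes, 0 of 6 elongator methionine genes and 0 of 1 selenocysteine gene. CLAMP was reproducible at 4 of 17 threonine genes, 3 of 8 phenylalanine genes and 3 of 10 tyrosine genes. These counts are small, and genes of 1 identity often lie in 1 cluster.

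The genes that make the tRNA machinery were examined by a summit within 500 bp of either annotated end. By that rule CP190 was reproducible at 47.4% of all protein-coding genes, with 51.2% of these lost and 25.8% kept, and CLAMP at 11.6%. Of 10 subunit genes of RNA polymerase III, CP190 was reproducible at 7, of which 5 were lost and 2 called in 1 dsCP190 library. Polr3A, the gene of the largest subunit, had a mock fold of 9.03 and 7.25 and no peak in dsCP190 cells. Polr3D had 3.32 in dsCP190 replicate 2 only, against 7.80 and 7.22 in mock cells. CLAMP was reproducible at 0 of the 10.

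Of 11 genes of Pol III factors and of tRNA handling, CP190 was reproducible at 9, beside 47.4% of all protein-coding genes. Of the 9, 7 were lost and 2 called in 1 dsCP190 library, beside 51.2% lost and 25.8% kept of all protein-coding genes called. CLAMP was reproducible at 1 of the 11, beside 11.6% of all protein-coding genes. The TFIIIB gene Brf had a mock CP190 fold of 5.40 and 4.14 and no peak in dsCP190 cells. Bdp1, another TFIIIB gene, had 3.40 in dsCP190 replicate 2 only, against 8.35 and 9.32 in mock cells. RNaseZ, which trims the 3′ ends of tRNAs, had 11.3 and 9.52 in mock cells and no peak in dsCP190 cells, and so did the tRNA methyltransferase gene Mt2 with 7.74 and 7.85.

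CP190 was reproducible at all 20 genes of cytosolic aminoacyl-tRNA synthetases, which charge tRNAs with their amino acids, beside 47.4% of all protein-coding genes. After dsCP190, 14 were lost, 4 kept and 2 called in 1 library, beside 51.2% lost and 25.8% kept of all protein-coding genes called. The kept HisRS had a fold of 13.6 and 18.9 in dsCP190 cells, against 31.0 and 23.6 in mock cells, and the kept LysRS had 5.00 and 9.95 in dsCP190 cells, against 17.2 and 17.2 in mock cells. GlyRS was lost, with 10.3 and 9.93 in mock cells. CLAMP was reproducible at 3 of the 20, beside 11.6% of all protein-coding genes. Of these 3, 2 were lost and 1, IleRS, was called in dsCP190 replicate 1 only, with a fold of 2.58 against 4.06 and 6.79 in mock cells.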

How the data were processed

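Peak lists of 8 immunoprecipitations were used, 1 per library. The submitters' processing notes name MACS2 2.1.1.20160309, deepTools 3.0.2, Picard 2.18.9, Bowtie2 2.3.4.1 and cutadapt 1.16, with dm6 as the build. What served as control, how peaks were called and what was done with reads that match several tRNA gene copies is not given in the sources used. The deposited values of a peak are its −log10 q, its −log10 p, its fold over background, a score and the offset of the summit. Near-identical tRNA copies cannot be told apart by such reads.

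Genes came from a RefSeq table of the same assembly, with neither strand nor exons. Fragments and background at a summit were recovered as the pair that gives the deposited fold, as (fragments + 1)/(background + 1), and the deposited −log10 p within 0.002. This held for all but 1 peak and was tested on simulated data. Depth ratios are background ratios at summits within 100 bp. Coordinates are 1-based. Libraries were compared by two-sided exact permutation tests with Python 3.11.15, pandas 2.3.3 and SciPy 1.17.1.

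Named genes were, per antibody, the 8 kept and 8 lost genes with the highest mean mock percentile of fold, up to 10 with both proteins and the 4 largest clusters. Up to 4 genes were named per list of 3 fixed lists. Members, lists and tests were chosen with earlier results of these data known. Alternatives are given in the closing section.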

Additional observations from a re-analysis of the deposited data

How the results depend on the processing

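Of 282 recomputed values, 5 of the tested differences changed sign and 78 values without a test moved by more than the spread between libraries or 1.5 times the count. The other 199 did neither, although a tested difference among them could still change in size. The cause of these changes was not tested. The mean number of tRNA genes with a CP190 call, dsCP190 minus mock, was −39 and ranged from −46 to −32 when single libraries were left out, and it was 2.5 with lists of equal length. For CLAMP it was −11 and ranged from −15.5 to −6.50. The percent of CLAMP peaks at tRNA genes, dsCP190 minus mock, was 0.0888 and became −0.0325 with a window of 250 bp, −0.0693 with 1000 bp, −0.0790 with peaks overlapping the gene and −0.111 with lists of equal length. Lost CP190 genes numbered 26, against 24 kept. At a −log10 q of at least 10 they were 16 against 14 kept, and with a window of 1000 bp 42 against 39. With lists of equal length they were 1 against 21, as loci 14 against 19. Without genes near a protein-coding end they were 11 against 10. Lost CP190 genes ranged from 26 to 38 without single libraries. Lost CLAMP genes numbered 5 and became 11 with 1000 bp, 1 with lists of equal length and 1 away from protein-coding ends, and ranged from 5 to 14 without single libraries.

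The CP190 difference between clustered and single genes in mock cells, 14.0 percentage points, became 13.1 at a −log10 q of at least 3 and 3.43 at 10. It was 6.81 with a window of 250 bp, 15.6 with 1000 bp, 9.34 with overlapping peaks, 1.83 with lists of equal length, 33.2 over loci, 15.5 away from protein-coding ends, and 14.9 or 11.9 with clusters defined by 2 or 10 kb. For CLAMP it was −5.15 and became −3.69 at a −log10 q of at least 10, −7.34 with 250 bp, −3.01 with lists of equal length, 1.24 over loci, −3.58 away from protein-coding ends and −3.94 with clusters of 2 kb. Over loci a cluster counted as called where any of its genes was called, which favours clusters over single genes. The CP190 difference between genes inside and outside in mock cells, −7.41, became −14.5 with 1000 bp, −19.5 over loci and 0.162 away from protein-coding ends. For CLAMP it was −1.40 and became 0.0957 at a −log10 q of at least 10, 1.27 with 250 bp, 0.880 with 1000 bp, 2.34 with lists of equal length and 1.86 over loci. Genes with both proteins in mock cells numbered 9 and became 3 with 250 bp, 18 with 1000 bp, 5 with overlapping peaks and 4 away from protein-coding ends. They numbered 1 with lists of 901 CLAMP peaks and 2047 CP190 peaks, which were equal in length within each antibody only.

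The labels give the groups the same replicate numbers but no shared origin. The deviations of same-numbered libraries correlated at −0.08 for CP190 and 0.01 for CLAMP over peaks present in all 4 libraries. With 2 libraries per group, these values cannot show whether same-numbered samples share an origin. With the replicate number as a block the CP190 difference was −39 genes and the CLAMP difference −11, with a smallest possible p of 0.5. Only 2 libraries per group and shorter dsCP190 lists, with a lower background at shared summits, limit every comparison. A gene without a listed peak may still be bound below the threshold of that list.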
